A study of Mus musculus with 2 samples.

Results

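The clustered histone genes are the genes for the linker histone H1 and the core histones H2A, H2B, H3 and H4 that lie together in 4 groups named Hist1 to Hist4. They were followed in single-cell RNA-seq of E16.5 mouse embryos, in the corticoseptal boundary, which is the midline tissue between cortex and septum. The members were the 67 genes, of 32285 in the deposited tables, whose symbol begins with Hist1 to Hist4 followed by h1 to h4. Of these, 61 reached 20 unique molecular identifiers (UMIs, the count of captured RNA molecules) over the cells of both libraries. They comprised 5 H1, 15 H2A, 16 H2B, 12 H3 and 13 H4 genes, of which 49 lie in Hist1 on chromosome 13, 9 in Hist2 on chromosome 3, 2 in Hist3 on chromosome 11 and 1, Hist4h4, on chromosome 6. The other 6 were Hist1h2ah with 17 UMIs, just under the minimum, Hist1h1t with 4, Hist2h2aa2 with 2, Hist1h2aa with 1, and Hist1h2bq and Hist1h2ba with 0. Hist1h2ao, just above the minimum, held 23. One library came from wild-type (WT) embryos and 1 from Tcf4f/f;Emx1Cre embryos (Tcf4 cKO, here cKO), in which Emx1-driven Cre recombines in the progenitors that give rise to cortex. Neither the number of embryos per library nor the floxed exon is given in the labels. With 1 library per genotype, no difference between genotypes could be tested: every interval below is a 95% interval for counting error only, and no p-value is given.

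Most clustered histone genes are transcribed when DNA is copied in S phase, so that new chromatin can be packed. Their mRNAs are unusual in that they end in a short stem-loop, bound by the stem-loop binding protein Slbp, instead of a poly(A) tail, and are degraded when replication ends. Some of these genes are also known to give polyadenylated transcripts in cells that have left the cycle, and the libraries here were made by capture of poly(A) RNA at the 3′ end. The counts therefore depend on that capture, and how much of each gene's counted RNA was polyadenylated was not tested. Levels are compared between cells; they are not scaled by length, so the shares of member UMIs given below are shares of captured molecules and not mRNA levels per gene length.

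The WT and cKO libraries held 8634 and 10101 cells with a median of 9660 and 8143 UMIs per cell, and 21 cell barcodes occurred in both. Cycling cells were those in which Top2a, a topoisomerase, and Mki67, the Ki-67 antigen, summed to 4 UMIs or more. This gave 1191 cycling cells in WT (13.8% of cells, 13.1 to 14.5) and 1199 in cKO (11.9%, 11.2 to 12.5). At 3000 UMIs per cell and at least 2 UMIs of the pair, the shares were 11.7% and 10.4%. All 25 genes of a mitosis list were at least 2-fold higher in cycling than in other cells of both libraries. Levels below are CPM, a gene's UMIs scaled to a fixed total of all UMIs, and a pair of values is WT first, then cKO. Tcf4, the floxed gene, stood at 1425 and 1045 CPM in cycling cells, a ratio of cKO over WT of 0.733 (0.719 to 0.747), and at 1517 and 1160.0 CPM in other cells, a ratio of 0.765 (0.758 to 0.771). Whether its counted 3′ end lies in the deleted part is not stated.

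The stem-loop was searched for in the transcript ends of the GENCODE vM21 annotation of GRCm38, which held all 67 members. It is 16 bases long, with a 6-base stem on each side of a 4-base loop. Of the 61 members, 44 carried it in an annotated 3′UTR. Among protein-coding genes with an annotated 3′UTR, 74 of 21037 did (0.352%), and 46 of those were members. For 11 of the 61 members no 3′UTR is annotated, so no site could be found in them. The sites of 7 of the most counted members are shown because they set the usual histone end beside genes that nevertheless gave many poly(A)-captured UMIs. Capitals mark the stem and loop.
Hist3h2ba: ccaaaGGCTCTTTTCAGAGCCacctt
Hist3h2a: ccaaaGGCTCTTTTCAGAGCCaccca
Hist1h2ae: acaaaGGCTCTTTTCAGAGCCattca
Hist1h1c: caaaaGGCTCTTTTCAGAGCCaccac
Hist1h3c: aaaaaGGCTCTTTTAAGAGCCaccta
Hist1h4d: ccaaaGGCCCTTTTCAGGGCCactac
Hist1h4i: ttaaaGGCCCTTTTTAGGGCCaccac
The first 4 share one stem-loop, which 25 members carried, while that of Hist1h4d was found in 7 members and that of Hist1h3c in 5. In Hist3h2ba, an H2B gene at chr11:58948920-58949533 on the plus strand, the stem-loop begins 28 bases after the stop codon and 169 annotated bases follow it. In Hist3h2a, an H2A gene at chr11:58954685-58956830 on the plus strand, 1643 annotated bases follow it. Hist1h1c, an H1 gene, has 840 such bases, Hist1h4d 770 and Hist1h2ae 151. In all, 22 members have at least 100 annotated bases past the stem-loop, so their annotated transcripts reach beyond the usual end. Hist1h2bc, an H2B gene at chr13:23684199-23692908 on the plus strand, has a 742-base 3′UTR in which no stem-loop was found, and Hist1h1b, an H1 gene at chr13:21779883-21780625 on the minus strand, has no annotated 3′UTR. The 28 members with a 3′UTR of at least 100 bases held 77.2% of all member UMIs, and 14 of them end in a poly(A) signal (AATAAA or ATTAAA in the last 50 bases), against 1 of the 33 others. The signal was sought only in annotated 3′UTRs, which 11 of these 33 lack, so this contrast was partly set by the annotation.

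The clustered histone genes together were several-fold higher in cycling cells. They made up 3441 CPM (3414 to 3468) of cycling and 843 CPM (837 to 850.1) of other cells in WT, a ratio of 4.08 (4.03 to 4.12). In cKO they made up 3191 CPM (3164 to 3219) and 951 CPM (944 to 958), a ratio of 3.35 (3.32 to 3.39). The median cycling cell held 47 member UMIs in WT and 40 in cKO, and the median other cell held 7 in both. Cycling cells were far from uniform, with a range between the 5th and 95th percentiles of 4 to 135 UMIs in WT and 4 to 106 in cKO. Hist3h2ba and Hist3h2a went the other way and gave 77.4% and 78.8% of the member UMIs of other cells, but 5.65% and 7.33% of those of cycling cells. Without this pair the ratio was 17.1 (16.8 to 17.4) in WT, from 3247 against 190.2 CPM, and 14.7 (14.4 to 15.0) in cKO, from 2957 against 201 CPM. Cycling cells held 81.0% and 76.3% of the UMIs of these other members.

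Gene by gene, 54 of the 59 members with at least 20 UMIs in the WT library were at least 2-fold higher in cycling cells, where 10.4% of 16410 genes were. In cKO 55 of 59 were, against 11.6% of genes. The members' median ratio was 14.9 in WT and 15.2 in cKO, and that of all genes tested 0.952 and 0.947. Hist3h2ba and Hist3h2a were the 2 members at least 2-fold lower, in both libraries, where 15.7% and 17.7% of genes were. The contrast was graded: in cells with 0, 1, 2 and 3 UMIs of Top2a and Mki67, the members outside Hist3 stood at 170.3, 256, 465 and 557 CPM in WT, and at 639 CPM with 4 UMIs, the lowest number counted as cycling. In cKO the same cells held 179, 283, 499, 745 and 683 CPM.

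**Figure D1:**
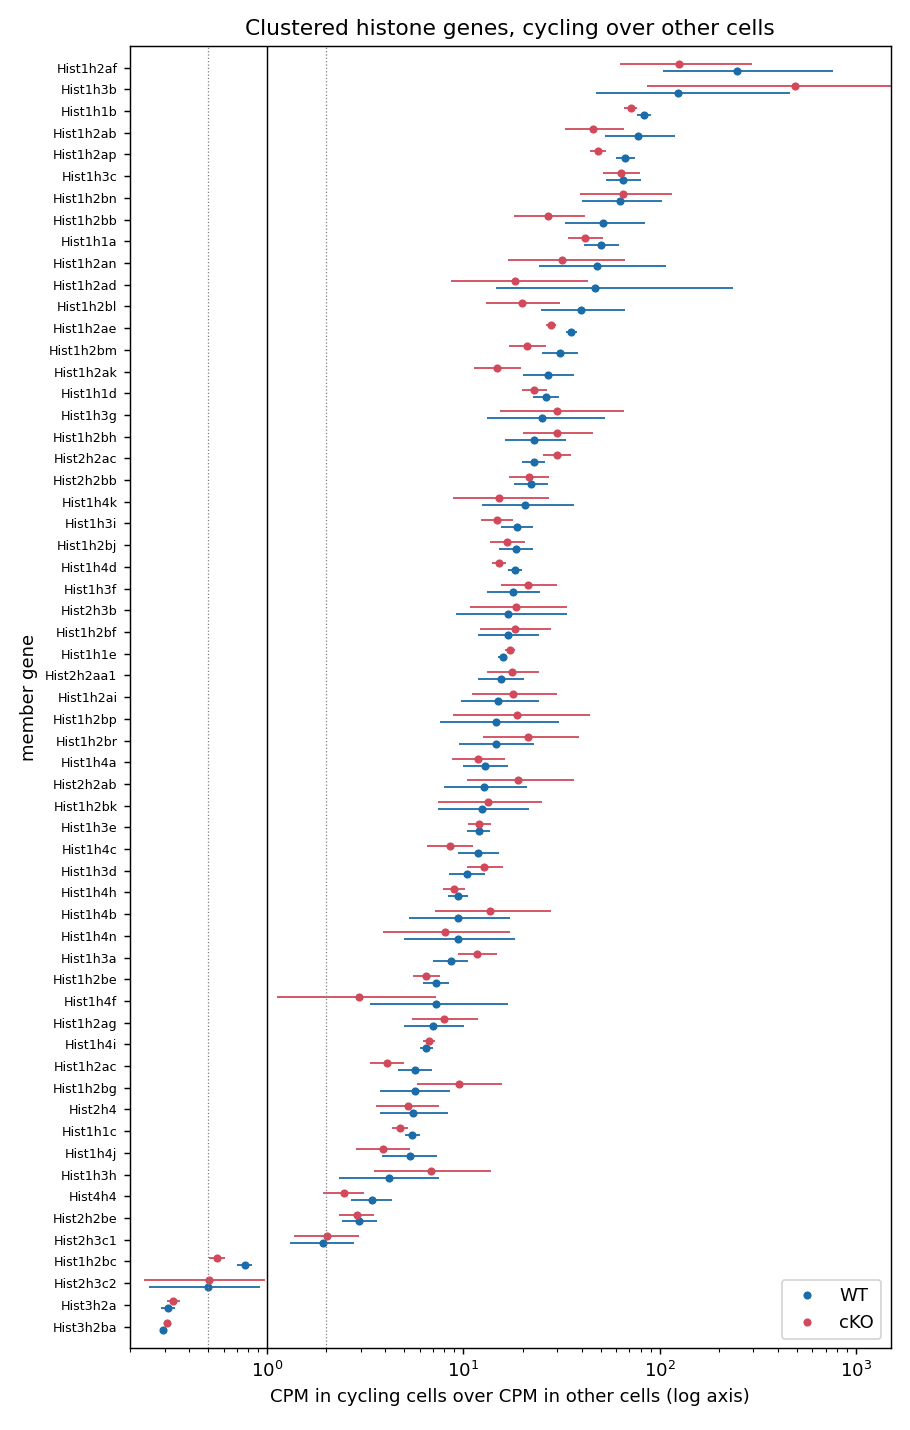
Level in cycling cells over level in other cells for each member with at least 20 UMIs, WT and cKO, on a log axis. Points are ratios of CPM, bars their 95% counting intervals, and dotted lines mark 2-fold. Nearly all members lie to the right of 2-fold, while Hist3h2ba (0.294 and 0.308) and Hist3h2a (0.313 and 0.333) lie far to the left.

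Among the families without a Hist3 member, the 5 linker histone genes had the highest ratio. H1 members summed to 1252 and 1145 CPM in cycling cells and to 45.9 and 43.3 CPM in other cells, ratios of 27.3 (26.3 to 28.3) and 26.5 (25.5 to 27.5). Hist1h1b, which encodes H1.5, was the member with most UMIs outside Hist3 and stood at 697 and 646 CPM in cycling and 8.39 and 9.10 CPM in other cells, ratios of 83.1 (76.7 to 90.2) and 71.1 (65.8 to 76.9). At 3000 UMIs per cell it was detected in 60.03% and 61.2% of cycling cells and in 2.19% and 2.22% of others (78.3%, 79.7%, 6.49% and 5.83% before thinning). Its level in other cells lay below the 37.5 and 39.1 CPM in droplets of 10 to 100 UMIs, which hold free RNA, so a part of the low level from free RNA cannot be told apart. Hist1h1e, which encodes H1.4, stood at 351 and 318 CPM against 22.1 and 18.4 CPM, ratios of 15.8 and 17.2. Hist1h1e overlaps Hist1h2be on the same strand, so whether and where reads of that stretch were counted is uncertain. Hist1h1c, which encodes H1.2, had the smallest contrast of the 5 H1 genes, with 61.4 and 54.1 CPM against 11.2 and 11.4 CPM, ratios of 5.49 (5.02 to 6.01) and 4.75 (4.32 to 5.23). Hist1h1a, which encodes H1.1, stood at 69.2 and 60.01 CPM against 1.38 and 1.44 CPM, a ratio of 50.3 in WT and 41.6 in cKO.

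Among the core histones, H2A genes outside Hist3 summed to 1105 and 1041 CPM in cycling and 31.0 and 35.8 CPM in other cells, ratios of 35.6 (34.1 to 37.2) and 29.1 (27.9 to 30.3). Hist1h2ae stood at 595 and 575 CPM against 16.8 and 20.6 CPM, ratios of 35.5 (33.5 to 37.7) and 27.9 (26.5 to 29.5). Hist1h2ap followed at 318 and 301 CPM against 4.75 and 6.23 CPM, ratios of 66.9 and 48.3, and Hist2h2ac at 77.5 and 67.8 CPM against 3.40 and 2.27 CPM, ratios of 22.8 and 29.8. These 3 H2A genes differ in how well their reads can be placed: 56.8% of the 50-base words of Hist1h2ae occur in no other annotated gene, 61.4% of those of Hist2h2ac and 6.93% of those of Hist1h2ap, which shares most with Hist1h2ao. Hist1h2af and Hist1h3b had the highest WT ratios, 246 (104 to 764) and 124 (47.2 to 462), on 542 and 237 UMIs in all. In cKO they were 126 (62.7 to 295) and 492 (86.4 to 19598), so counting error spans their order. Hist1h2ab, with 963 UMIs, had ratios of 77.7 and 45.9. In all, 29 of the 61 members had under 50% of words of their own, and single values of such genes are uncertain. The words were compared with all annotated genes, some of which are not listed by name among the counted ones.

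The H2B genes outside Hist3 had the weakest contrast of the core families, with 259 and 212 CPM in cycling against 60.2 and 70.8 CPM in other cells, ratios of 4.29 (4.12 to 4.47) and 2.99 (2.87 to 3.12). Hist1h2bc accounted for most of the level in other cells, at 45.6 and 56.9 CPM, against 35.0 and 31.7 CPM in cycling cells, ratios of 0.768 (0.705 to 0.836) and 0.556 (0.507 to 0.609). The other H2B genes of high count went with the rest: Hist1h2bm stood at 43.4 and 29.5 CPM in cycling cells and 1.40 CPM in other cells of both libraries. H3 members summed to 238 and 220.4 CPM against 14.9 and 13.6 CPM, ratios of 15.98 (15.0 to 17.1) and 16.2 (15.1 to 17.4). Hist1h3c, the H3 gene with most UMIs, stood at 88.9 and 76.9 CPM against 1.36 and 1.22 CPM, ratios of 65.2 and 63.2. Hist2h3c2 had ratios of 0.49997 (0.250 to 0.914) and 0.506 (0.235 to 0.974) on 208 UMIs, which missed the 2-fold rule once 0.5 UMI was added to each sum, and Hist2h3c1 ratios of 1.91 and 2.01. No 50-base word of Hist2h3c1 and 36.5% of those of Hist2h3c2 occur in that gene alone among annotated genes. The main partner of both, Gm20634, overlaps Hist2h3c1 on the same strand and is not listed by that name among the counted genes. How firmly reads of Hist2h3c1 and Hist2h3c2 were placed is thus not known from these shares. H4 members summed to 394 and 339 CPM against 38.3 and 37.8 CPM, ratios of 10.3 and 8.97. Hist1h4d stood at 184 and 147 CPM against 10.0 and 9.68 CPM and Hist1h4i at 100.3 and 108 CPM against 15.5 and 16.1 CPM, ratios of 18.3 and 15.2 for the first and 6.47 and 6.67 for the second.

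With all classes pooled, Hist3h2ba and Hist3h2a were the members at least 2-fold higher in other cells than in cycling cells. Hist3h2ba stood at 159 and 194 CPM in cycling cells and at 540.4 and 630.2 CPM in other cells, ratios of 0.294 (0.283 to 0.305) and 0.308 (0.297 to 0.319). With 93900 UMIs it gave more counts than any other member, and at 3000 UMIs per cell it was detected in 69.3% and 75.2% of other cells and 34.1% and 41.2% of cycling cells (89.3%, 91.5%, 79.4% and 83.5% before thinning). Hist3h2a stood at 35.3 and 39.9 CPM against 113 and 119.9 CPM, ratios of 0.313 (0.289 to 0.339) and 0.333 (0.307 to 0.360). Free RNA held 589 and 715 CPM of Hist3h2ba and 114 and 127 CPM of Hist3h2a, close to their level in other cells. In cycling cells both genes stood below these values, so a part of their level there from free RNA cannot be told apart. Hist3h2a overlaps Trim17 on the same strand, but Trim17 itself held 76 UMIs against 18748 for Hist3h2a.

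Within astroglia-like and within intermediate progenitor-like cells the contrast of this pair was smaller. In astroglia-like cells (named, like the classes below, from clusters with fixed marker genes) Hist3h2ba stood at 156 and 195 CPM in cycling and 175 and 204 CPM in other cells, ratios of 0.891 (0.831 to 0.955) and 0.956 (0.90 to 1.02). Hist3h2a gave 0.916 (0.793 to 1.06) and 0.977 (0.857 to 1.11) there. Both genes stood below their free-RNA levels in astroglia-like cells, cycling or not, and the part of free RNA in these ratios was not tested. The class included 1 cluster of 769 and 436 cells, of which 24 and 13 cycled. Its leading genes were Cnmd, Capsl, Fgf17, Gm17455, Spef2, Cfap52, Cybrd1, Cfap45, Pifo and Dcdc2a, several but not all of them genes of motile cilia. It is called the cilium-gene cluster below for those leading genes only. Without that cluster Hist3h2ba gave 0.758 (0.702 to 0.818) and 0.867 (0.814 to 0.924). In intermediate progenitor-like cells the ratios were 0.637 (0.583 to 0.695) and 0.595 (0.540 to 0.654) for Hist3h2ba and 0.539 and 0.558 for Hist3h2a. The other cells pooled above included the neurons described below, in which the pair was highest. Most other members were higher in cycling cells within both classes. In astroglia-like cells 51 of 56 members were at least 2-fold higher in cycling cells of WT (5.24% of genes) and 50 of 55 of cKO (4.34%), with median ratios of 8.86 and 7.23. In intermediate progenitor-like cells 41 of 44 (7.87%) and 33 of 38 (8.35%) were, with medians of 12.4 and 15.7, and 0 were at least 2-fold lower in either library (6.1% and 7.19% of genes). Hist1h1b stood at 718 and 675 CPM against 19.5 and 28.3 CPM in astroglia-like cells (753 and 686 against 32.5 and 35.2 CPM without the cilium-gene cluster), and at 822 and 873 CPM against 17.7 and 15.9 CPM in intermediate progenitor-like cells. Hist1h2bc kept its inverse contrast in astroglia-like cells, at 40.9 and 33.7 CPM against 61.6 and 79.2 CPM. In cKO it was the only member at least 2-fold lower there, where 9.57% of genes were.

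To place the members within the cycle, cells were thinned to 3000 UMIs and ordered by the share of mitosis-gene UMIs among those of a list of 31 DNA replication genes (S list) and the list of 25 mitosis genes (M list), for cells with at least 8 such UMIs. The members outside Hist3 were lowest at the replication end, highest in the middle and intermediate at the mitotic end. The ends are named from the lists alone, and whether cells at the replication end were cycling or copying DNA was not tested. In WT, from the bin with 0 to 20% mitosis UMIs to that with 80 to 100%, they stood at 825, 4404, 4729, 3424 and 1665 CPM, in 591, 267, 193, 294 and 521 cells. In cKO they stood at 818, 3891, 4592, 3279 and 1594 CPM, in 648, 230, 191, 295 and 572 cells. Of the 39 members with at least 100 UMIs per library in these cells, 31 were highest in bin 2 or 3 of both libraries, as were 17.9% of 10475 genes with that many UMIs. In 24 of the 39 the highest bin was the same in both libraries, as in 47.4% of genes. The linker gene Hist1h1b stood at 177, 1012, 1068, 689 and 287 CPM in WT. Slbp, which binds the stem-loop, was highest in bin 2, at 259, 375, 282, 140.0 and 57.7 CPM in WT and 277, 371, 312, 154 and 57.4 CPM in cKO.

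Members differed in what was left at the mitotic end. There Hist1h1a stood at 18.6% and 18.2% of its peak, Hist1h2ae at 22.5% and 23.5%, Hist1h1b at 26.9% and 27.0%, Hist1h4d at 50.2% and 52.3% and Hist1h4i at 64.3% and 62.7%. Hist1h2bc was instead highest late, with 16.4, 27.3, 44.5, 56.6 and 70.3 CPM from the first to the last bin in WT and 16.2, 30.3, 27.3, 78.8 and 69.3 CPM in cKO. Hist3h2ba was also highest at the mitotic end of both libraries, with 133, 141, 148, 175 and 203 CPM in WT and 157, 166, 178, 197 and 242 CPM in cKO. Hist3h2a was likewise highest in the last bin, at 44.2 and 47.6 CPM.

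**Figure D2:**
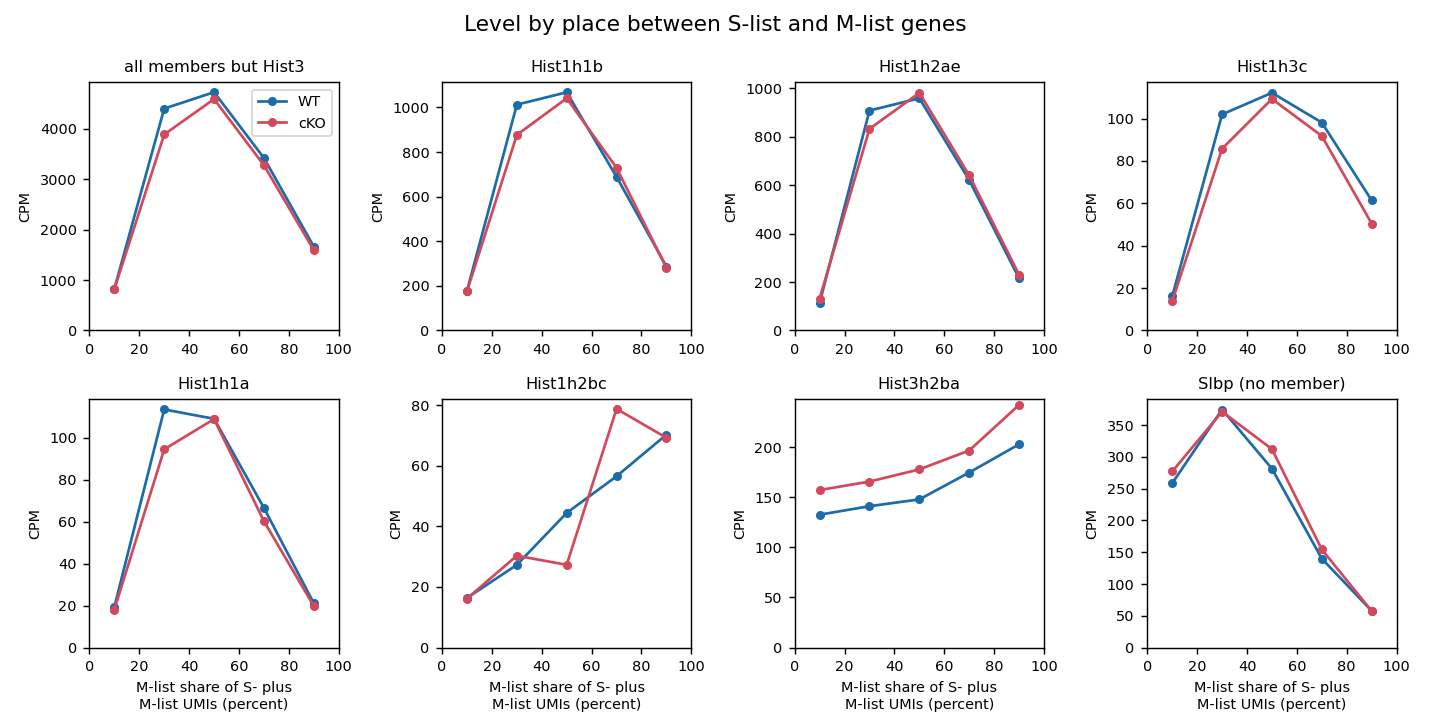
Level (CPM) of the members outside Hist3, of 6 single members and of Slbp in 5 bins of cells ordered by the share of M-list UMIs (percent) among S-list and M-list UMIs, WT and cKO. Lines join the bins of a library; most members peak in the middle bins, while Hist1h2bc and Hist3h2ba are higher toward the mitotic end.

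A coarser split of the thinned cells was also made. Cells with at least 4 UMIs of both lists held 3887 and 3673 CPM of all members, cells with 4 or more of the M list alone 1123 and 1112 CPM, and cells with 4 or more of the S list alone 712 and 741 CPM. The last 2 groups gave an S over M ratio of 0.634 (0.612 to 0.658) in WT and 0.667 (0.643 to 0.691) in cKO, and of 0.454 and 0.455 without the Hist3 pair. Without that pair, cells with the S list alone stood at 392 and 363 CPM. Cells with under 4 UMIs of each list stood at 163 and 172 CPM. The share of cycling cells in these groups was not counted, so the ratio does not compare known phases of the cycle. Of 41 members tested in WT, 0 were at least 2-fold higher with the S list (6.88% of genes) and 24 at least 2-fold lower (5.02%). In cKO 1 of 40 was higher (8.08%), Hist1h3a, and 24 were lower (5.23%). The median member ratio was 0.450 and 0.449, against 1.04 and 1.07 for all genes. The lowest WT ratios belonged to Hist1h2ag (0.185 in WT and 0.345 in cKO), Hist1h2bc (0.206 and 0.270), Hist1h2ab (0.211 and 0.385), Hist1h3c (0.220 and 0.213) and Hist1h2bb (0.266 and 0.336). The highest belonged to Hist1h4j (1.58 and 0.448), Hist3h2ba (1.31 and 1.23), Hist1h3a (1.24 and 2.25), Hist1h4a (1.17 and 0.453) and Hist1h1a (0.987 and 0.904). Hist1h4j and Hist1h4a changed sides between libraries on at most 50 UMIs in any of these groups. Hist1h2bc stood at 138 and 133 CPM in cells with the M list alone, above its level in any other group of this split.

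The genes that make and handle histone mRNA and protein had list medians below the members' 14.9 and 15.2, although single genes such as Asf1b did not lie below them. Of 19 genes for 3′ processing and transcription of histone mRNA, 3 in WT (Slbp, the transcription factor E2f1 and Zfp473) and 4 in cKO (with the exonuclease Eri1) were at least 2-fold higher in cycling cells, with median ratios of 1.35 and 1.28. Slbp stood at 206 and 205.5 CPM against 66.0 and 67.5 CPM, ratios of 3.11 (2.98 to 3.25) and 3.04 (2.91 to 3.18). Npat, the coactivator of histone gene transcription, stood at 30.3 and 34.01 CPM against 19.4 and 19.9 CPM. Of 16 histone chaperones, 8 were at least 2-fold higher in each library: the H3-H4 chaperones Asf1b (ratios of 20.1 and 26.9), Chaf1a, Chaf1b and Nasp, the histone-binding protein Rbbp7, the acetyltransferase Hat1, the FACT subunit Ssrp1 and the CENP-A chaperone Hjurp. Of 11 histone genes outside the clusters, most of which give polyadenylated mRNA, 6 were: H2afz, H2afx, H2afv, H1fx, H1f0 and Cenpa. H2afz, the H2A.Z gene, stood at 5254 and 5561 CPM against 1311 and 1328 CPM, while the replacement H3.3 gene H3f3a stood at 3244 and 3307 CPM against 3683 and 3809 CPM. Of the 31 S-list genes 29 and 30 were higher, with medians of 4.80 and 4.98. The background for these counts is the 10.4% and 11.6% given above.

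Outside the cycle, the cell classes differed in which clustered histone gene they held. Hist3h2ba was highest in GABAergic neuron-like cells, at 949 and 959 CPM, followed by glutamatergic neuron-like cells at 598 and 720.1 CPM, Cajal-Retzius-like cells at 435 and 514 CPM, intermediate progenitor-like cells at 351 and 459 CPM, and astroglia-like cells at 175 and 204 CPM. The counting intervals of neighbours in this order did not overlap in either library. Subpallial progenitor-like cells held 184 and 163 CPM, close to astroglia. Hist3h2a had its 2 highest levels in the same neurons, at 161 and 153 CPM in GABAergic and 149 and 157 CPM in glutamatergic neuron-like cells, and 41.1 and 43.9 CPM in astroglia-like cells. Neurons of both kinds held almost no cycling cell: 4 of 1925 and 2 of 3035 glutamatergic and 2 of 2015 and 5 of 2391 GABAergic neuron-like cells. Among Cajal-Retzius-like cells 0 of 188 and 0 of 160 cycled, which allows shares of up to 1.60% and 1.88% at 3 counts of the total, and of up to 1.94% and 2.28% by the Clopper-Pearson interval.

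Hist1h2bc was distributed differently. Among cells outside the cycle it stood at 84.0 (59.1 to 116) and 94.0 (68.0 to 127) CPM in microglia-like cells, on 37 and 43 UMIs, and at 61.6 (57.7 to 65.7) and 79.2 (74.4 to 84.2) CPM in astroglia-like cells, so the order of these classes lay within counting error. It stood at 47.6 and 62.3 CPM in glutamatergic neuron-like cells and at 17.4 and 16.4 CPM in Cajal-Retzius-like cells, and free RNA held 44.9 and 51.5 CPM of it. Hist1h1e was highest in subpallial progenitor-like cells, at 59.8 and 54.6 CPM, then in astroglia-like cells at 48.5 and 43.7 CPM, and stood at 5.81 and 4.98 CPM in glutamatergic neuron-like cells. Hist1h4i was at 26.6 and 33.8 CPM in astroglia-like and 9.33 and 10.4 CPM in glutamatergic neuron-like cells. Hist2h2be, an H2B gene, was highest in astroglia-like cells, at 7.13 and 5.88 CPM. Astroglia-like cells also led in both libraries for Hist1h1b, Hist1h4d and Hist2h2ac. In classes with many progenitors, cells just under the cycling limit were included among the others: 95 and 98 cells had 3 UMIs of Top2a and Mki67.

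**Figure D3:**
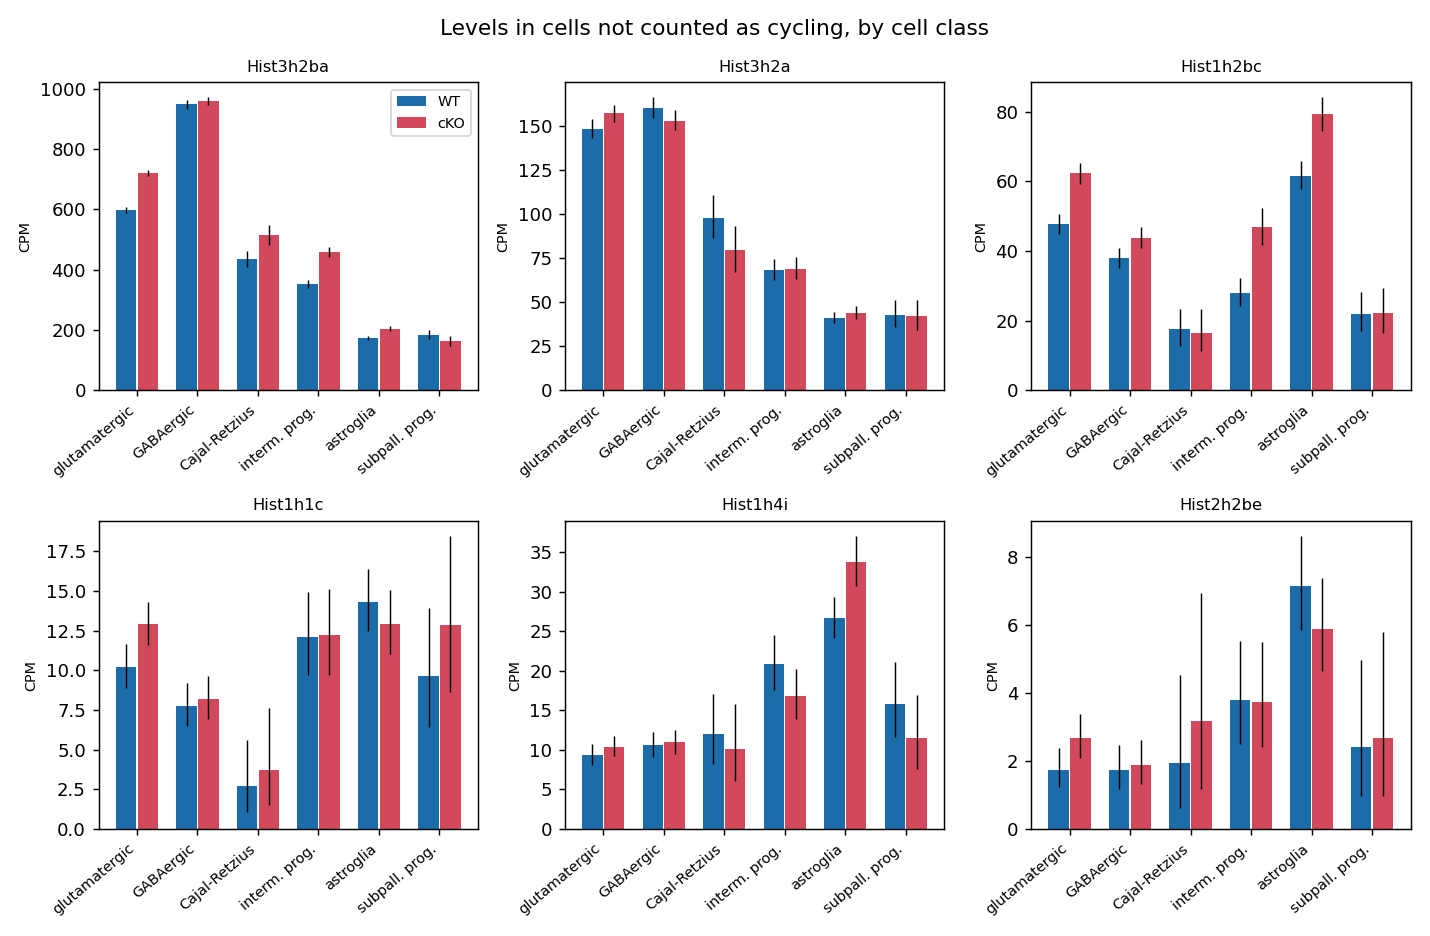
Level (CPM) of 6 members in cells not counted as cycling, by cell class, WT and cKO. Bars start at 0 and lines are 95% counting intervals; Hist3h2ba and Hist3h2a are highest in the 2 neuron classes, while Hist1h2bc, Hist1h4i and Hist2h2be are higher in astroglia than in GABAergic neurons.

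Between genotypes, the summed level was lower in cKO in cycling cells and higher in other cells, where the Hist3 pair gave most of the UMIs. In cycling cells the members summed to 0.927 of the WT level in cKO (0.917 to 0.938), from the 3191 and 3441 CPM above, and in other cells to 1.13 (1.12 to 1.14). Without the Hist3 pair these ratios were 0.911 (0.90 to 0.922) and 1.06 (1.03 to 1.08). Over all cells the sum was 1355 CPM in cKO and 1363 CPM in WT. The members were at 0.959 (0.942 to 0.975) in cycling astroglia-like cells and 0.984 (0.955 to 1.01) in cycling intermediate progenitor-like cells. These classes held 477 and 637, and 183 and 133, of the cycling cells, so the pooled cells differed in make-up between libraries. A further 491 and 397 cycling cells lay in clusters without a class name and are in neither class ratio. Of 59 members compared in cycling cells, 0 were at least 1.5-fold higher in cKO (2.22% of genes) and 2 at least 1.5-fold lower (7.26%), Hist1h4c and Hist1h4f. The median was 0.911, with 45 of 59 below 1, beside 0.976 for all genes, of which 58.5% were below 1. Free RNA differed in the same direction as other cells, at 1214 CPM in cKO and 1020 CPM in WT, and its part in the ratio of other cells was not tested.

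In cycling cells the lowest ratios by counting bound were those of Hist1h2bm, an H2B gene, from 43.4 to 29.5 CPM (0.680, 0.606 to 0.762), Hist1h4d, from 184 to 147 CPM (0.797, 0.756 to 0.840), Hist1h4h, from 55.1 to 42.3 CPM (0.767, 0.696 to 0.845), Hist1h4c, from 15.0 to 9.93 CPM (0.662, 0.543 to 0.806), and Hist2h2bb, from 35.5 to 25.8 CPM (0.728, 0.643 to 0.824). Of these, 3 are H4 genes, and the H4 family as a whole stood at 0.861 (0.831 to 0.891), against 0.915 for H1, 0.948 for H2A and 0.928 for H3. The H2B genes stood at 0.973 (0.941 to 1.005) with Hist3h2ba and at 0.820 (0.785 to 0.857), below the H4 family, without it. Hist1h4i, an H4 gene too, stood at 1.07 (1.01 to 1.15). The highest ratios by the same rule belonged to Hist3h2ba at 1.22 (1.16 to 1.28), Hist1h3d at 1.19 (1.02 to 1.39), Hist3h2a at 1.13 (1.01 to 1.26), Hist1h4i, and Hist2h3b at 1.40 (0.968 to 2.03). Hist1h4f rested on 54 UMIs in all and stood at 0.502 (0.201 to 1.15).

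In other cells 0 of 56 members were at least 1.5-fold higher in cKO (3.19% of genes) and 4 at least 1.5-fold lower (8.27%): Hist2h2ab, Hist1h3h, Hist1h2br and Hist1h2bg, each with at most 227 UMIs in all. The median was 0.968, close to the 0.976 of all genes, and 32 of 56 members were below 1, as were 59.4% of genes. Hist1h2bc was higher at 56.9 against 45.6 CPM (1.25, 1.19 to 1.31), Hist3h2ba at 630.2 against 540.4 CPM (1.17, 1.15 to 1.18), Hist1h2ae at 20.6 against 16.8 CPM (1.23, 1.14 to 1.32), Hist1h2ap at 6.23 against 4.75 CPM (1.31, 1.14 to 1.51) and Hist1h2ac at 2.96 against 2.31 CPM (1.28, 1.05 to 1.58). Lower were Hist2h2ac at 0.669 (0.548 to 0.815), Hist1h1e at 0.833 (0.775 to 0.895), Hist1h4h at 0.807 (0.70 to 0.930), Hist1h3a at 0.752 (0.581 to 0.972) and Hist1h2bg at 0.593 (0.350 to 0.987). Hist1h2ae and Hist1h2ap in other cells stood below their free-RNA levels of 50.7 and 40.9 CPM and of 31.3 and 52.7 CPM. None of the 5 gene lists had a gene 1.5-fold apart between genotypes in either group of cells.

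By class, the cKO over WT ratio of all members was 1.19 (1.17 to 1.21) in glutamatergic neuron-like cells, 1.15 (1.13 to 1.17) in astroglia-like cells and 1.00 (0.986 to 1.02) in GABAergic neuron-like cells. In subpallial progenitor-like cells it was 0.891 (0.820 to 0.967). The astroglia-like ratio turned to 0.963 (0.948 to 0.978) without the cilium-gene cluster, which held 769 of the 2036 WT but 436 of the 2164 cKO cells of the class. The share of cycling cells in that class was 23.4% in WT and 29.4% in cKO, and with cycling cells left out its ratio was 1.16, or 1.05 (1.01 to 1.09) without the cilium-gene cluster. In intermediate progenitor-like cells the ratio was 0.885 (0.864 to 0.906) over all cells but 1.15 (1.10 to 1.198) with cycling cells left out, and the share of cycling cells was 20.5% in WT and 13.8% in cKO. Hist3h2ba outside the cycle stood at 1.205 (1.18 to 1.23) in glutamatergic, 1.31 (1.24 to 1.38) in intermediate progenitor-like and 1.01 (0.990 to 1.03) in GABAergic cells. Hist1h2bc stood at 1.31 in glutamatergic, 1.29 in astroglia-like, 1.67 (1.39 to 2.0) in intermediate progenitor-like and 1.15 in GABAergic cells. The glutamatergic class was made of different clusters in the 2 libraries: 3 clusters held 831, 624 and 232 cKO but 11, 6 and 15 WT cells, and 2 others 510 and 475 WT but 9 and 2 cKO cells. The genotype and the library cannot be told apart in any of these values.

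**Figure D4:**
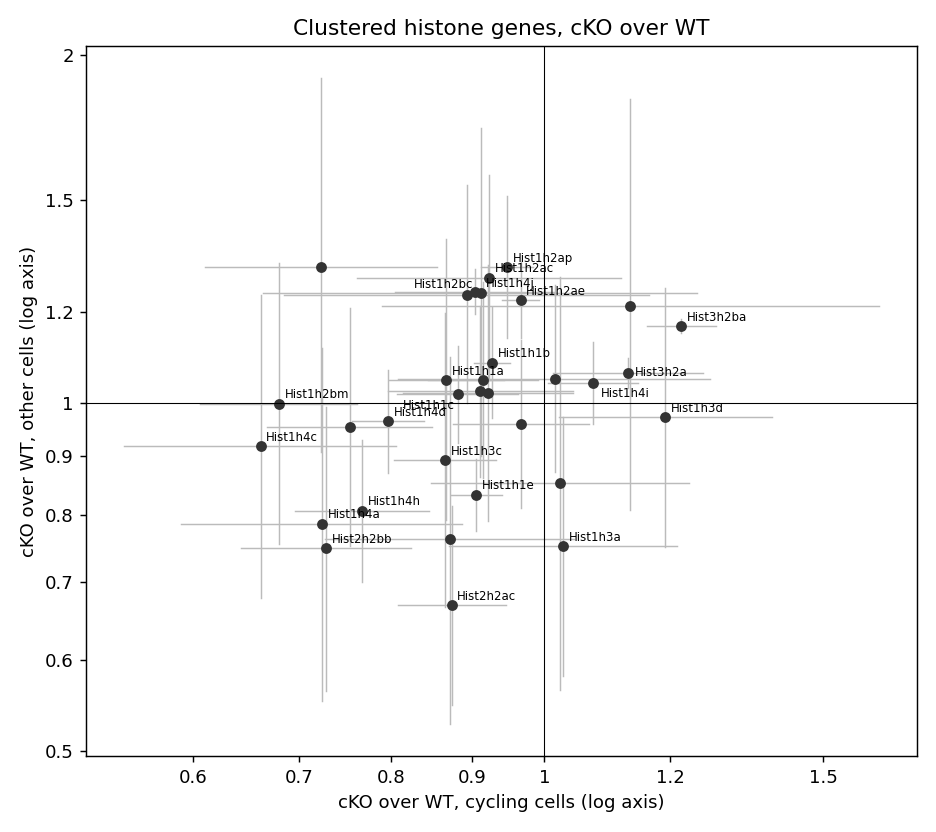
Ratio of cKO over WT level in cycling cells (horizontal, log axis) against that in other cells (vertical, log axis) for the 33 members with at least 100 UMIs in each kind of cell, libraries summed. Lines are 95% counting intervals, and members named in the text are labelled; Hist3h2ba is above 1 on both axes, and Hist1h4c and Hist1h2bm are at the left.

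Promoters were read from RefSeq (GRCm38.p6), 250 bases before to 50 after the start, for the 54 of 61 members whose entry matched in place and strand. Motifs were sought on both strands. Those of 4 genes are shown. They are the H1 gene with the strongest signal in cycling cells, the Hist3 pair, higher in other cells pooled over classes, and Hist1h2ac. The start of Hist1h2ac lies 251 bases from that of Hist1h2bc on the other strand. Capitals mark CCAAT boxes, TATAAA, the octamer ATTTGCAT known from H2B promoters, and the AAACACA box known from H1 promoters.
Hist1h1b, chr13:21780576-21780875, minus strand: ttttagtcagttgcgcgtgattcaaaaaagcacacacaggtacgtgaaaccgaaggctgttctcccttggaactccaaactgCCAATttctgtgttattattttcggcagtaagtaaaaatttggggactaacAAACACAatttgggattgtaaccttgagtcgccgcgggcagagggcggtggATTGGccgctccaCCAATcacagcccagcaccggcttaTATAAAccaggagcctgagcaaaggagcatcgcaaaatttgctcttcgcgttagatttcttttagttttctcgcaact
Hist3h2ba, chr11:58948661-58948960, plus strand: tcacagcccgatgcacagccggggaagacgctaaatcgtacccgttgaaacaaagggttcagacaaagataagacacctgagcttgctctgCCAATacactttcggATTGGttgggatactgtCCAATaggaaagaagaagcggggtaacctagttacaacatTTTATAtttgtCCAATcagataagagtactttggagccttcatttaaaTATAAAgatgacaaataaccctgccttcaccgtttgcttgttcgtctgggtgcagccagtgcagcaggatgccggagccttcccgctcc
Hist3h2a, chr11:58954435-58954734, plus strand: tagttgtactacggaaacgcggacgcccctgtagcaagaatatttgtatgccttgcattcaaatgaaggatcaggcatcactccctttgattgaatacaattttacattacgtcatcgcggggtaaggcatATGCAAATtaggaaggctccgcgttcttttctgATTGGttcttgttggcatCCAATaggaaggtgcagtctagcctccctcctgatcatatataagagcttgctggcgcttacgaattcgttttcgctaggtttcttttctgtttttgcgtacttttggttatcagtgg
Hist1h2ac, chr13:23683910-23684209, minus strand: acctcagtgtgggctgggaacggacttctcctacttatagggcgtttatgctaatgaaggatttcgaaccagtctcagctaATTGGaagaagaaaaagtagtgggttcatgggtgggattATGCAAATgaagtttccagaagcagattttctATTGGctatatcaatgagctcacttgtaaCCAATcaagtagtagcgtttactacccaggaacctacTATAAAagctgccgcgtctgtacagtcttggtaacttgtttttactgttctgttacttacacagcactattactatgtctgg
Hist1h1b held the AAACACA box 117 bases before the start, as 3 of 4 H1 promoters held one, while 5 members in all (9.26%) and 7.14% of 27025 promoters did. CCAAT occurred in 45 member promoters (83.3%, against 37.9% of all), in every one of the H1, H2A, H2B and H3 genes and in 3 of 12 H4 genes. Both Hist3 promoters held it, Hist3h2ba with 4 matches and Hist3h2a with 2. TATAAA occurred in 31 (57.4%, against 14.2%), Hist3h2ba and Hist1h1b among them, and Hist3h2a without it. The octamer occurred in 10 (18.5%, against 1.75%), 5 of 14 H2A and 5 of 14 H2B promoters, Hist3h2a and Hist1h2ac among them. TTTCGCG, an E2F-like motif, occurred in 12 (22.2%, against 0.844%), 7 H2A and 5 H2B promoters. CANNTG, the E-box core bound by basic helix-loop-helix factors such as Tcf4, occurred in 37 (68.5%), against 72.1% of all promoters. These are matches of letters and not sites of binding. Windows of the divergent H2A and H2B pairs described below overlap, so 1 match can count for both genes of a pair.

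The H2A and H2B genes often lie as divergent pairs, head to head, and 12 such pairs among the 67 members had starts at most 306 bases apart. In 4 of them, picked after their values were seen, the WT cycling ratios of the 2 genes lay apart, and the difference within a pair was not tested. Hist1h2ac stood at 5.68 (4.66 to 6.95) and its partner Hist1h2bc at 0.768 (0.705 to 0.836). Hist2h2ac stood at 22.8 (19.9 to 26.2) and Hist2h2be at 2.95 (2.40 to 3.62), 239 bases apart. Hist1h2ae stood at 35.5 (33.5 to 37.7) and Hist1h2bg at 5.67 (3.78 to 8.59), 176 bases apart. Hist1h2ak and Hist1h2bn were the reverse in family, with the H2A gene at 27.0 and the H2B gene at 62.5 (40.2 to 102). Only 47.7% of the 50-base words of Hist1h2ak and 13.6% of those of Hist1h2bn occur in that gene alone, so their order is uncertain. By transcript end, the 28 members with a 3′UTR of at least 100 bases had a median WT ratio of 8.85 and a lowest of 0.294, and the 33 others a median of 20.7 and a lowest of 2.86. In cKO the medians were 8.996 and 18.5. All 4 members with a WT ratio under 1, Hist3h2ba, Hist3h2a, Hist1h2bc and Hist2h3c2, had a 3′UTR of at least 100 bases.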

How the data were processed

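The deposited matrices of the 1 WT and 1 cKO library hold unnormalised UMI counts, made by the authors with Cell Ranger: version 2.1.1 and mm10 per the submitters' processing notes, version 7.1.0 per the file headers. The labels name a 3′ v1 kit, capturing poly(A) RNA. Library totals were 116998498 and 121321247 UMIs. Barcodes were kept above 3348 (WT) and 3341 (cKO) UMIs, the 99th percentile of the top barcodes divided by 10, if they had 500 genes or more and no more than 10% mitochondrial UMIs, and 330 and 567 doublet calls (Scrublet method) were removed. UMIs were summed per group of cells and divided by all UMIs (CPM). Intervals are exact Poisson for levels, conditional binomial for ratios and Clopper-Pearson for shares. Counts past a fold used 0.5 UMI added and genes with at least 20 UMIs. Clusters (scanpy 1.11.5, leidenalg 0.10.2, resolution 1) left histone and cycle genes out of the variable genes. A cluster took its best class if at least 3 of its markers counted, its score was at least 1.5 times the next, and none of the rival classes held a greater number of its markers in the 10 leading genes. Leading genes outside the marker lists had no say. Clusters that took no class held 1107 (WT) and 963 (cKO) cells, which are in the pooled groups but in no class comparison. The ratio step was tested on simulated data. Members, lists and rules were chosen with earlier results of these data known. Named are the 12 members with most UMIs, the 5 at each end of each ratio, and members leading a class. Members counted at thresholds, divergent pairs and list examples were named after their values were seen. Alternatives are listed in the closing section. Python 3.11.15, numpy 2.4.6, scipy 1.17.1 and pandas 2.3.3 were used.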

Additional observations from a re-analysis of the deposited data

Results flagged for a closer look

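The ratio of cKO over WT for all members differed in direction between cycling cells (0.927) and other cells (1.13). Without the Hist3 pair, which gave most member UMIs of other cells, the ratios were 0.911 and 1.06. Hist3h2ba (1.22 and 1.17) and Hist3h2a (1.13 and 1.06) were above 1 in both kinds of cell. The median member stood at 0.968 in other cells. Opposite directions were also seen for Hist1h2ae (0.966 and 1.23) and Hist1h2ap (0.947 and 1.31), both of which stood below their free-RNA levels in other cells. These differences were not tested, since there was 1 library per genotype. Droplets of 10 to 100 UMIs, which the comparisons do not use, held member UMIs at 1020 (WT) and 1214 (cKO) CPM.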

How the results depend on the processing

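No paired analysis was possible because each genotype had 1 library. The cycling over other ratio of all members (4.08 in WT, 3.35 in cKO) was 3.63 and 3.01 with cycling set at 2 UMIs, 4.49 and 3.63 at 8, 4.22 and 3.45 in thinned cells, 3.93 and 3.24 with doublets kept, 4.17 and 3.56 with the cell minimum doubled, 4.30 and 3.55 with median-of-ratios scaling, and 4.03 in WT as a mean of cells. The S over M ratio (0.634 and 0.667) was 0.620 in thinned cKO cells, 0.670 and 0.609 with doublets, 0.605 and 0.622 with median-of-ratios, 0.635 in cKO as a mean of cells, and 0.794 and 0.769 with lists at 3 UMIs. The cKO over WT ratio in cycling cells (0.927) was 0.913 at 8 UMIs, 0.901 thinned, 0.9505 with median-of-ratios and 0.946 as a mean of cells. In other cells (1.13) it was 1.10 thinned, 1.09 with the minimum doubled and 1.16 with median-of-ratios.

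Chosen after seeing the data, leaving out the Hist3 pair gave 17.1, 14.7, 0.454, 0.455, 0.911 and 1.06 for these 6 ratios in the same order, and astroglia-like cells alone gave 6.36, 5.28, 0.959 and 1.16 for the cycling and genotype ratios. With the cilium-gene cluster also left out, astroglia-like cells gave 5.38, 4.79, 0.933 and 1.05, and their ratio over all cells reversed from 1.15 to 0.963. By class, the ratio was 1.21 and 1.24 in glutamatergic cells at resolution 0.5 and 2, 1.17 in astroglia at resolution 2, and 1.15 in intermediate progenitors without cycling cells, where it reversed.

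Members past 1.5-fold in cycling cells (2) numbered 1 with cycling at 2 UMIs, with median-of-ratios, without mitochondrial and ribosomal genes and at a 50-UMI minimum, 9 thinned and 4 at a 1-UMI minimum. In other cells (4) they numbered 11 at the 1-UMI and 1 at the 50-UMI minimum. Members higher in cycling cells numbered 46 to 59 under all alternatives. Thinning and the UMI minimums also change how many members qualify. Neither that number nor the share of all genes was counted for each alternative, so these counts cannot be compared as shares. The H4 ratio in other cells (0.988) was 1.01 with median-of-ratios. Depth limits members with few UMIs, whose intervals are wide.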
